A study of Arabidopsis thaliana with 11 samples.

Results

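The genes described here are 9 Arabidopsis thaliana genes, measured by 10 probe sets, whose signal was high on both arrays of an nga quadruple mutant and close to wild type on the arrays of plants carrying an artificial microRNA directed at the same target genes. They are ECS1, QQS, 2A6, LCR66, RSU1, ATB2, AT1G22010, AT1G33360 and AT4G18280, out of 13286 genes that could be named from a probe set of 1 gene. They were chosen from the measured differences of the quadruple mutant from amiR-NGA and from wild type, so these differences are given as a description without a test. The direction of these differences follows from the choice of genes.

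Inflorescences of 30-day-old plants of the Ler ecotype, with flowers of stage 12 and younger, were profiled on Affymetrix ATH1 arrays, on which several short probes form a probe set. Of the 11 arrays, 7 were labelled wild type, 2 were of a quadruple mutant that combines the alleles nga1-1, nga2-1, nga3-1 and also nga4-1 and 2 were of plants carrying 35S:miR-NGA, a microRNA directed at all 4 NGATHA genes and driven by the viral 35S promoter (amiR-NGA). A note of long days was given for 3 of the wild-type arrays, and no day length was stated for the other arrays. The sources used here do not say how many plants or transgenic lines entered a sample, nor whether replicates came from separate plantings, so the spread between replicates may be technical.

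NGATHA genes encode transcription factors of the B3 family with overlapping roles in forming the style and stigma. Among the raised genes, ECS1 encodes a cell-wall protein first studied for its link to differences between accessions in resistance to Xanthomonas. QQS is an orphan gene found in A. thaliana alone, whose loss raises leaf starch and whose expression is known to vary between accessions together with DNA methylation. LCR66, also named PDF2.4, is a small cysteine-rich protein of the plant defensin family, 2A6 belongs to the 2-oxoglutarate and iron-dependent oxygenases, and ATB2 is an aldo-keto reductase. RSU1 is annotated by RefSeq as a transcribed pseudogene, and for the 3 genes known by locus the annotation used here gives no role.

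Values are log2 expression as deposited by the authors, where a difference of 1 is a 2-fold change. The lowest value in the table was 2.61, and the method compresses changes of dim transcripts near that floor. All 10 probe sets passed the filter on dim signals (log2 of at least 4 on at least 4 arrays), but QQS and the dimmer probe set of 2A6 passed it only with the help of the quadruple mutant arrays, where they were highest.

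The targeted genes were checked on the same arrays. NGA3 and NGA4 were lower on all 4 arrays of both genotypes than on any array labelled wild type, and NGA2 was lower in the quadruple mutant (4.68 and 4.77, against 5.19 to 5.52 in wild type and 5.34 and 5.47 in amiR-NGA). NGA2 thus went against the label of the amiR-NGA arrays, on which it was not lower than in wild type (difference 0.06, limma adjusted p = 0.844). NGA1 went against the labels: it lay between 5.60 and 5.99 on wild-type replicates 1 to 4 but at 10.50 or more on wild-type replicates 5 to 7, with 6.95 and 6.50 in the quadruple mutant and 5.02 and 4.88 in amiR-NGA. The controls are therefore named throughout by their label. On wild-type replicates 1 and 2 and quadruple mutant replicate 1 the 3-prime actin probe set exceeded the 5-prime one by 2.05 to 2.11 on the log2 scale, and elsewhere by 1.09 to 1.31.

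ECS1 (AT1G31580, chromosome 1) showed the widest separation of the 9 genes. Its log2 values on the arrays labelled wild type ran from 5.31 through a median of 6.20 to 7.20. The quadruple mutant arrays gave 9.23 (replicate 1) and 10.19 (replicate 2), and the amiR-NGA arrays gave 5.70 and 6.07. Both quadruple mutant arrays thus lay above all 9 others, the lower of them by 2.03, and both amiR-NGA arrays lay inside the wild-type range. The mean was 9.71 ± 0.68 (SD, n = 2) in the quadruple mutant, 6.30 ± 0.71 (n = 7) in wild type and 5.89 ± 0.26 (n = 2) in amiR-NGA, which is 10.7 times the wild-type level. The replicates of the quadruple mutant differed from each other by 0.96, and taken singly they stood at 7.65 and 14.9 times the wild-type mean.

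LCR66 (AT1G61070, chromosome 1), the defensin-like gene, had the highest log2 values of the 9 genes in every group, on a scale that is not corrected for probe differences between genes. It ran from 8.38 through 8.68 to 8.82 in wild type, and measured 10.76 and 10.88 in the quadruple mutant and 8.70 and 8.68 in amiR-NGA. No array of another group came within 1.94 of the quadruple mutant. The means of 10.82 ± 0.086 (SD, n = 2), 8.64 ± 0.16 (n = 7) and 8.69 ± 0.016 (n = 2) correspond to a level 4.51 times that of wild type in the quadruple mutant.

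QQS (AT3G30720, chromosome 3) was near the floor of the values outside the quadruple mutant. Its wild-type values ran from 3.45 through 3.74 to 4.23, lower than those of nearly all kept probe sets, and its amiR-NGA values were 3.91 and 3.36. The quadruple mutant replicates measured 6.07 and 6.11, and these nearly equal values were 1.84 above the highest of the other arrays. The mean difference from wild type was 2.27 on the log2 scale (6.09 ± 0.024, SD, n = 2, against 3.81 ± 0.25, n = 7), a fold of 4.84 that is not exact because of the floor.

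2A6 (AT1G03410, chromosome 1) has 2 probe sets, and they gave different sizes. On the brighter one it ran from 5.07 through 5.35 to 5.78 in wild type, with 7.58 and 7.84 in the quadruple mutant and 5.19 and 5.59 in amiR-NGA, a level 5.05 times that of wild type. On the dimmer one it ran from 3.53 through 3.66 to 4.13 in wild type, with 4.21 and 4.29 in the quadruple mutant and 3.55 and 3.62 in amiR-NGA. Both probe sets placed both quadruple mutant arrays highest of all 11, but on the dimmer probe set the gap to the next array was 0.076, against 1.80 on the brighter.

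ATB2 (AT1G60710, chromosome 1), the aldo-keto reductase, ran from 7.34 through 7.69 to 7.81 in wild type and measured 9.20 and 9.16 in the quadruple mutant. Its amiR-NGA values of 7.86 and 7.51 lay around the wild-type mean of 7.64 ± 0.17 (SD, n = 7), and the quadruple mutant mean of 9.18 ± 0.027 (n = 2) was 2.91 times that level. The pseudogene RSU1 (AT3G48130, chromosome 3) was dim in wild type, from 3.80 through 3.99 to 4.15, and in amiR-NGA, at 4.44 and 4.08. It reached 5.80 and 5.84 in the quadruple mutant, 1.36 above the next array.

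AT1G22010 (chromosome 1) ran from 4.04 through 4.37 to 4.81 in wild type, measured 4.19 and 4.28 in amiR-NGA, and reached 6.56 and 7.51 in the quadruple mutant. As for ECS1, the replicates of the quadruple mutant differed widely, here by 0.95, yet the lower one was still 1.75 above every other array. AT4G18280 (chromosome 4) ran from 5.53 through 6.03 to 6.26 in wild type, with 7.72 and 7.91 in the quadruple mutant and 6.30 and 5.89 in amiR-NGA. AT1G33360 (chromosome 1) had the smallest gap of the genes with a single probe set: it ran from 4.79 through 5.12 to 5.28 in wild type, and measured 6.53 and 6.45 in the quadruple mutant. Its amiR-NGA values of 5.39 and 5.32 also lay just above every wild-type array, so for AT1G33360 the label of a gene raised in the quadruple mutant alone is not exact.

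**Figure D1:**
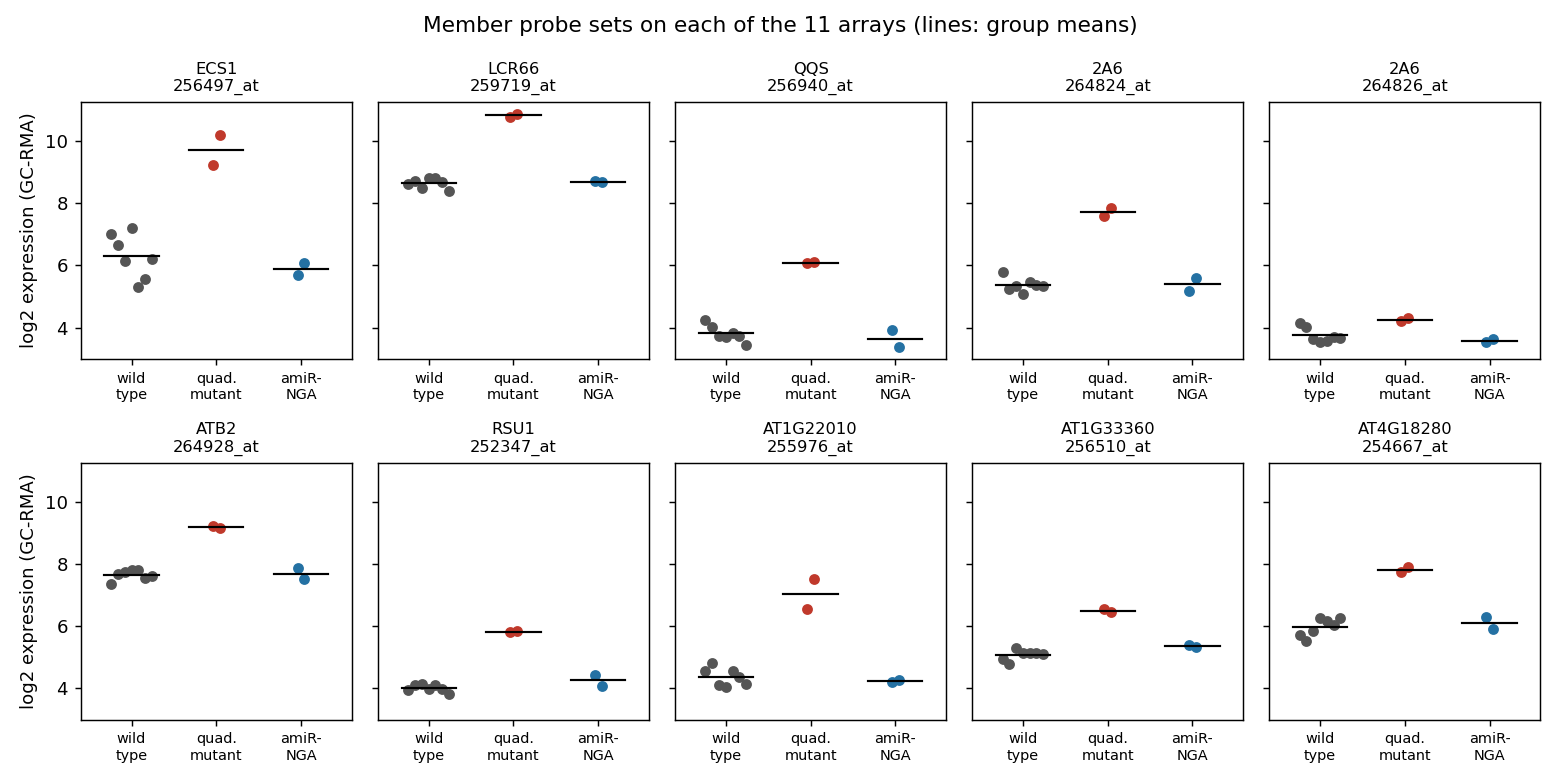
Log2 expression (y axis, GC-RMA values) of the 10 member probe sets in the 3 groups (x axis); each point is 1 array (7 wild type, 2 quadruple mutant, 2 amiR-NGA) and each line a group mean. In every panel both quadruple mutant arrays lie above the other 9, by 0.076 for the dimmer 2A6 probe set and by up to 2.03 for ECS1.

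Over the 10 probe sets, both quadruple mutant arrays lay above the 9 others for 10 of 10, as they did for 4.53% of all 17910 kept probe sets. The median difference from wild type was 2.01 for the members and -0.04 for all kept probe sets, and the median difference from amiR-NGA was 1.92 and -0.05. Of the 10 probe sets, 9 were called higher in the quadruple mutant than in amiR-NGA (limma, adjusted p under 0.05), against 0.101% of all kept probe sets, and 0 lower, against 0.0335%. Against wild type 9 were called higher and 0 lower, where 1.94% and 2.23% of all kept probe sets were. The probe set without a call was the dimmer one of 2A6. With the replicate number as a block, 1 probe set in all was called higher than in amiR-NGA, so at most 1 of these member calls remained there. The calls of the members were not followed singly through the other alternatives. Because these contrasts chose the genes, nothing is read from these counts. In amiR-NGA 0 of 10 were called higher or lower than wild type (limma), against 0.117% and 0.815% of all kept probe sets. The differences ran from -0.41 for ECS1 to 0.29 for AT1G33360. Closeness of amiR-NGA to wild type was part of the choice as well, so nothing is read from this count either. A total of 4 other named genes (AT1G54020, AT1G06640, AT1G24030 and AT1G65280) and 5 probe sets without a single gene name were called higher in the quadruple mutant than in amiR-NGA as well. These calls ended in 13 of 25 alternatives for AT1G65280 (limma adjusted p up to 0.595), in 11 for AT1G24030 (up to 0.496), in 7 for AT1G06640 (up to 0.206) and in 1 for AT1G54020 (0.0566, with the replicate block).

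**Figure D2:**
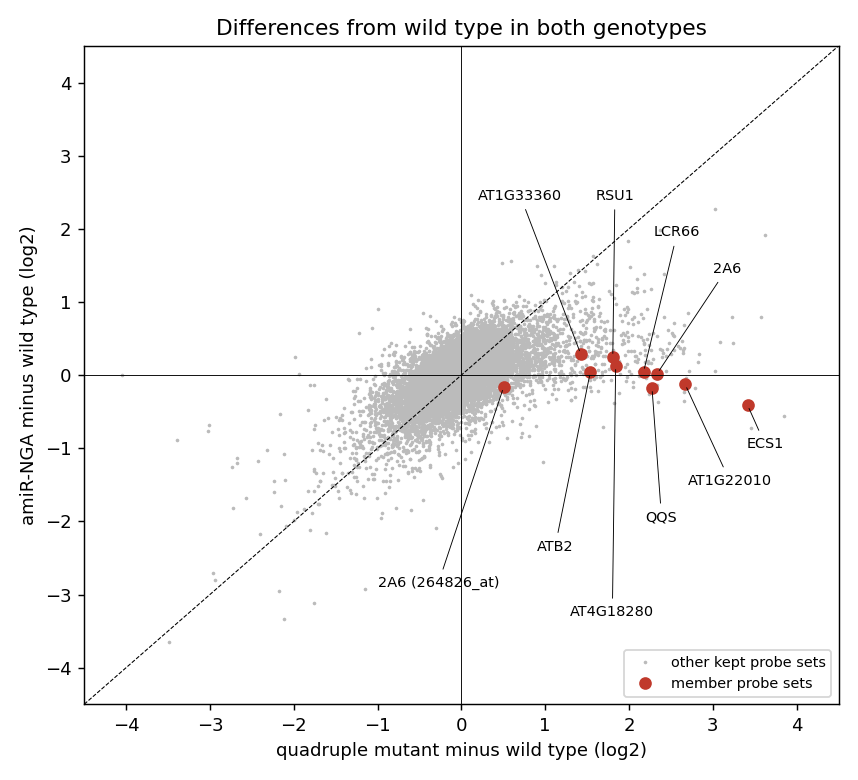
Difference from wild type in the quadruple mutant (x axis, log2) and in amiR-NGA (y axis, log2) for the 17910 kept probe sets; both axes share the same 7 controls. The member probe sets (red, named) lie between 0.50 and 3.41 on the x axis and between -0.41 and 0.29 on the y axis, away from the dashed line of equal change.

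The spread of these genes within wild type is given as a description, since a small spread also helps a gene to be called. ECS1 was unusually variable among the arrays labelled wild type: its SD of 0.71 was higher than that of 98.4% of kept probe sets, and its lowest and highest arrays were 1.89 apart. The SDs of the other 9 probe sets ran from 0.12 for RSU1 to 0.29 for AT1G22010, where the median of all kept probe sets was 0.24. For QQS, RSU1 and the dimmer 2A6 probe set, which lie near the floor in wild type, the method compresses this spread. ECS1 measured 6.13 to 7.20 on wild-type replicates 1 to 4 and 5.31 to 6.20 on replicates 5 to 7. These ranges overlapped only through replicate 3 (6.13) and replicate 7 (6.20). Replicates 1, 2 and 4 (7.01, 6.66 and 7.20) lay above all of replicates 5 to 7. NGA1 differed between the same sets of replicates, and whether the spread of ECS1 is tied to this was not tested.

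The long-days note allowed a test within wild type. ECS1 averaged 6.66 on the 3 arrays with the note and 6.02 on the 4 without (difference 0.64, SE 0.41, limma adjusted p = 1.000), and the other 9 probe sets differed by between -0.27 (the brighter 2A6 probe set) and 0.17 (ATB2). With limma, 0 of 17910 probe sets passed the threshold in this comparison (0% called), and 289 (1.61%) had an unadjusted p under 0.05, 0 of them members. No difference tied to the note was detectable with these 7 arrays, and the day length of the 4 arrays without it is not given.

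The position of the genes, which did not enter their choice, was examined next. Of the 9 genes, 6 lie on chromosome 1, 2 on chromosome 3 and 1 on chromosome 4, where the kept probe sets of 1 gene divide as 26.3%, 20.6% and 14.5%. No member adjoins an NGATHA gene. 2A6 is the nearest, 312 loci from NGA3 in the RefSeq order of genes, RSU1 is 1803 loci from NGA2, and the others are at least 2737 loci from the NGATHA gene of their chromosome. ATB2 and LCR66 are 52 loci apart, and ECS1 and AT1G33360 are 247 apart.

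The loci that directly flank the members were measured for 8 of the 9 genes, and QQS had no measured neighbour. Among the 5 loci on each side, 20 had a kept probe set, and 0 of 20 were called between the quadruple mutant and amiR-NGA (0.134% of all kept probe sets were called); at that background 0 of 20 says little. The median of the 20 differences was -0.02. AT1G61065, the locus before LCR66, measured 7.003 in the quadruple mutant against 6.42 in amiR-NGA and 6.39 in wild type (difference from amiR-NGA 0.59, limma adjusted p = 0.693). AT1G03400, which adjoins 2A6 and encodes a related oxygenase, differed from wild type in the opposite direction to 2A6 (5.85 against 7.02, difference -1.17, limma adjusted p = 0.0706), and its level in amiR-NGA was 5.51. AT1G60690 and AT1G60730, aldo-keto reductase loci on each side of ATB2, differed from wild type by 0.13 and 0.01 (limma adjusted p = 0.688 and 0.968).

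Next to NGA2 and NGA4 some loci differed between the quadruple mutant and amiR-NGA in the other direction. Within 300 loci of NGA1 to NGA4, 3 of 509 probe sets (0.589%) were called, where 0.134% of all kept probe sets were. All 3 were lower in the quadruple mutant, where 0.0335% of all kept probe sets were, and all lay within 3 loci. Within 5 loci, 3 of 11 probe sets (27.3%) were called. None of the calls was near NGA1. AT3G61960 and AT3G61950, next to NGA2, measured 3.70 and 3.34, and 3.67 and 3.20, on the quadruple mutant replicates. In wild type AT3G61960 ran from 7.25 to 8.09 and AT3G61950 from 5.11 to 5.62, with amiR-NGA inside these ranges. Their differences from amiR-NGA were -4.05 (SE 0.25, limma adjusted p = 1.48e-05) and -1.95 (SE 0.20, adjusted p = 0.00130). ARV2, next to NGA4 and related to a gene of sterol homeostasis in yeast, was at 3.34 and 3.30 in the quadruple mutant against 4.89 to 5.65 in wild type (difference from amiR-NGA -2.23, SE 0.25, limma adjusted p = 0.00191). The quadruple mutant values of these 3 genes lie near the floor, so the sizes of their differences are not exact. With the replicate number as a block the calls of AT3G61950 and ARV2 ended (adjusted p = 0.108 and 0.0566). For NGA3 none of the 5 loci on either side had a kept probe set.

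**Figure D3:**
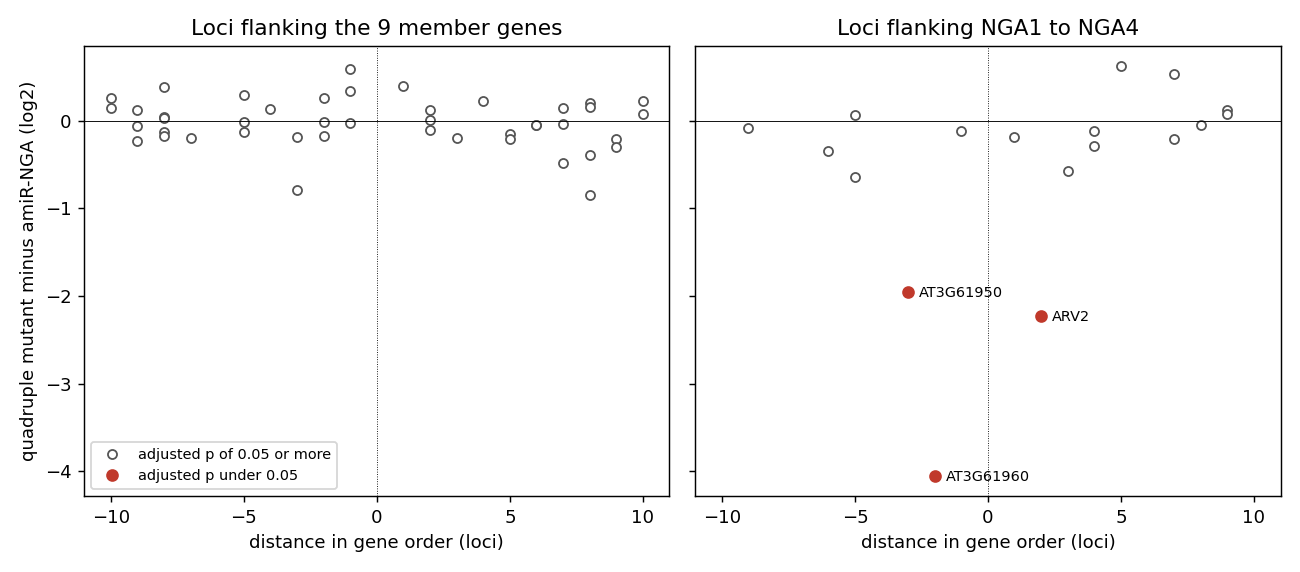
Difference between the quadruple mutant and amiR-NGA (y axis, log2) for loci with a kept probe set against their distance in gene order (x axis, up to 10 loci each way) from the 9 member genes (left) and from NGA1 to NGA4 (right). Filled points passed limma's adjusted p of 0.05: none on the left, and AT3G61960, AT3G61950 and ARV2, at -4.05, -1.95 and -2.23, on the right.

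Chromosome 1, which holds 6 of the 9 genes, also held more of the other probe sets that were highest in the quadruple mutant. With the members left out, both quadruple mutant arrays lay above all others for 6.41% of the 2622 kept probe sets of chromosome 1 and for 3.46% of the 7360 on chromosomes 2 to 5, whose single values ran from 3.21% to 3.66%. Taken alone, quadruple mutant replicate 1 lay above the 9 arrays of the other groups for 16.5% and 13.0%, and replicate 2 for 12.5% and 8.46%. The share for amiR-NGA, counted the same way, was 4.23% on chromosome 1 and 5.39% elsewhere. In the other direction, both amiR-NGA arrays lay below all others for 4.42% on chromosome 1 against 2.74% elsewhere. Both quadruple mutant arrays did so for 6.52% against 5.76%, but chromosome 1 did not stand out there, since chromosome 5 had 6.56% and chromosome 2 had 6.24%. The share above all others in the quadruple mutant was uneven along chromosome 1. In blocks of 1000 loci it was 7.62% in block 1, which holds 2A6, 11.4% in block 3, which holds AT1G22010, 8.66% in block 4, which holds ECS1, and 8.52% in block 8, which holds ATB2 and LCR66. Blocks 2 and 7, which hold no member, had 6.45% and 6.11%, also above every block of the other chromosomes. It was 2.94% in block 5, which holds AT1G33360, 3.7% in block 6, 2.75% in block 9 and 2.24% in block 10. Over the 30 blocks of the other chromosomes it ran from 1.64% to 5.49%. The blocks there that hold QQS, RSU1 and AT4G18280 had 4.17%, 1.68% and 3.11%. The blocks were drawn after values were seen, loci of a block are not independent, and these shares carry no test.

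**Figure D4:**
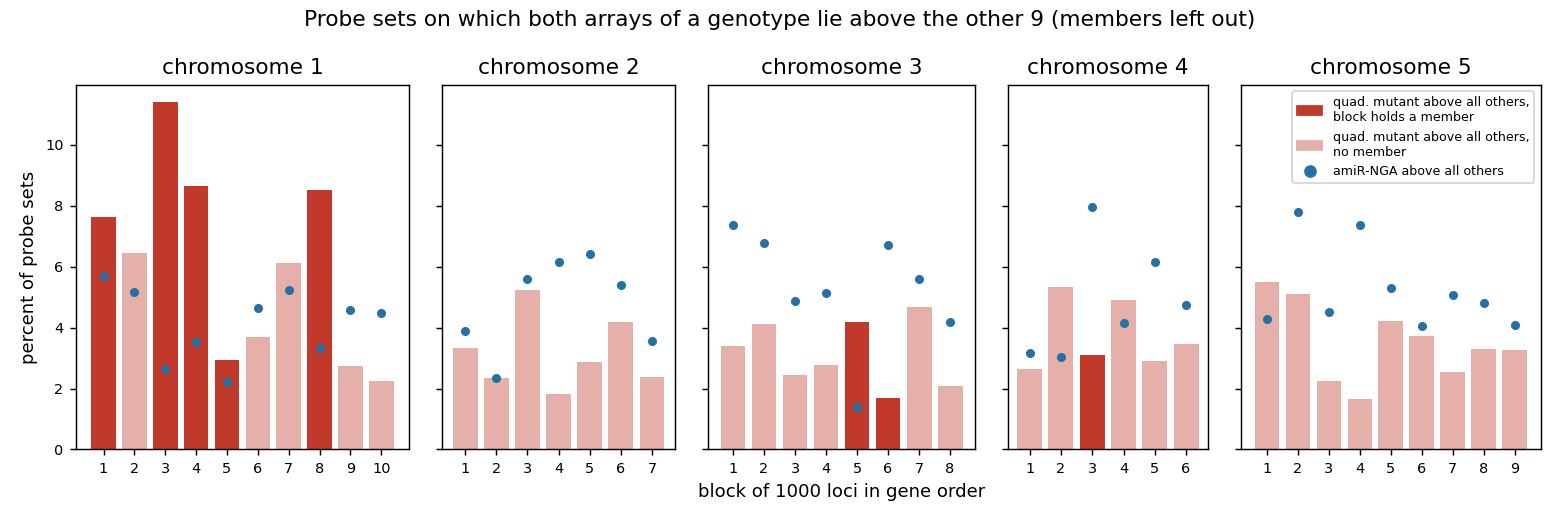
Share of kept probe sets (y axis, percent; members left out) on which both quadruple mutant arrays lie above the other 9 (bars) or both amiR-NGA arrays do (blue points), by block of 1000 loci in gene order (x axis) on chromosomes 1 to 5. Dark bars mark blocks with a member gene; on chromosome 1 blocks 3, 4 and 8 reach 11.4%, 8.66% and 8.52%, while the bars on the other chromosomes stay at or below 5.49%.

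The related genes of each member were taken as lists, of which the annotation covers few entries. Of 15 listed oxygenases related to 2A6, 7 had a kept probe set, and 1 rose and 1 fell in the quadruple mutant against wild type, where 4.17% of all kept probe sets were called. AT1G06640 rose: it measured 8.45 and 8.29 in the quadruple mutant, 4.27 to 5.57 in wild type and 5.34 and 5.78 in amiR-NGA (difference from wild type 3.24, SE 0.32, limma adjusted p = 0.000425). AT5G43450 fell, to 4.54 and 4.39 from 5.25 to 6.09 in wild type (difference -1.25, limma adjusted p = 0.0114), and in amiR-NGA it was as low, at 4.08 and 4.10 (difference -1.62, adjusted p = 0.00536). The AT5G43450 call in the quadruple mutant ended in 3 of 25 alternatives, among them the fit without quadruple mutant replicate 1 (limma adjusted p = 0.159). The median of the 7 was 0.06.

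Among 16 listed defensins 7 had a kept probe set, and LCR66 was the 1 called higher in the quadruple mutant. LCR66 is a member chosen for this rise, so its call is not a result about the list. None of the other measured defensins was called, where 1.94% of all kept probe sets were called higher than wild type. The bright defensins LCR69 and LCR68 differed from wild type by 0.37 and 0.68 there and by 0.52 and 0.85 in amiR-NGA, and none of these differences passed (limma adjusted p of 0.198 or more). LCR72 measured 7.26 on quadruple mutant replicate 1 and 4.23 on replicate 2, against 3.95 to 4.35 in wild type, so its difference of 1.68 rested on 1 array (limma adjusted p = 0.0876). The 5 measured aldo-keto reductases other than ATB2 and the 6 measured subunits of Clp proteases had 0 calls with limma. Their median differences were 0.01 and 0.07. With 4.17% of all kept probe sets called against wild type, 0 calls in such short lists says little.

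Of 34 listed genes of starch synthesis and breakdown, named because QQS affects starch, 6 had a kept probe set and 1 was called against wild type, where 4.17% of all kept probe sets were. This was APL4, a large subunit of ADP-glucose pyrophosphorylase, which averaged 6.76 in the quadruple mutant and 6.69 in amiR-NGA against 5.48 in wild type (quadruple mutant difference 1.28, limma adjusted p = 0.0421), so that, unlike QQS, it was at a similar level in both genotypes. Its call ended in 15 of 25 alternatives, with a limma adjusted p of up to 0.538 without quadruple mutant replicate 1. Of 20 listed defence genes, 2 had a kept probe set. Of these, THI2.1 was called higher in the quadruple mutant, where 1.94% of all kept probe sets were. THI2.1 measured 10.81 and 8.81 there, against 6.75 to 8.80 in wild type (limma adjusted p = 0.0458), with 9.17 and 8.85 in amiR-NGA. The THI2.1 call ended in 17 of 25 alternatives, among them the fit without quadruple mutant replicate 1. JAL23, the other measured gene, was at 7.79 and 7.77 in the quadruple mutant, against 3.65 to 7.19 in wild type. It had no call (difference 2.37, limma adjusted p = 0.0727), and it measured 7.25 and 7.53 in amiR-NGA. Of 30 loci known to differ between accessions, 1 had a kept probe set: AOP3, a glucosinolate gene, averaged 9.06 in the quadruple mutant, 8.98 in amiR-NGA and 8.80 in wild type, with 0 calls. Whether variation between plant lines accounts for the 9 genes was not tested.

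The tissue makeup of the arrays was compared through markers. All 5 pollen markers (ACT11, ACT12, AGL66, AGL104 and PLIM2b) had a kept probe set, and their summed level on the linear scale was 1081 and 601 on quadruple mutant replicates 1 and 2, 311 to 730 in wild type, and 596 and 473 in amiR-NGA. AGL104, a pollen MADS factor, was the 1 of 5 called higher in the quadruple mutant (limma adjusted p = 0.0282), where 1.94% of all kept probe sets were. The AGL104 call ended in 10 of 25 alternatives, among them the fit without quadruple mutant replicate 1. The summed level was highest on quadruple mutant replicate 1, while ACT12 alone was as high on amiR-NGA replicate 1 (5.12 on both). ACT11 was the brightest of the 5 (mean log2 8.93 in the quadruple mutant, next PLIM2b at 7.45), so it weighed most in the sum. The part of pollen in the results was not tested. The 3 measured tapetum and anther markers summed to 3237 and 5040 in the quadruple mutant, against 3707 to 5942 in wild type, with 0 calls. This sum was mostly AT5G07230 (mean log2 11.90 in the quadruple mutant, against 6.43 for AMS and 6.94 for SPL). INO, the measured ovule marker, was called higher in both genotypes, where 1.94% (quadruple mutant) and 0.117% (amiR-NGA) of all kept probe sets were. Its quadruple mutant difference was 0.77 (limma adjusted p = 0.0359), a call that ended in 13 of 25 alternatives. Flower organ, meristem, leaf and root markers had no kept probe set of 1 gene. In whole inflorescences a change in the share of a cell type and a change in RNA per cell cannot be told apart.

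The genes whose profile over the 11 arrays was most like the mean standardized profile of the members were AT1G65280 (r = 0.956), AT1G54020 (0.944), AT1G24030 (0.934), AT1G56680 (0.932), AT3G62960 (0.924), AT1G31910 (0.921), AT1G21730 (0.920) and AT5G17280 (0.914). These correlations describe 11 arrays in 3 groups and mostly restate the contrast that chose the members. Of the 8, 6 lie on chromosome 1, which holds 26.3% of the kept probe sets of 1 gene. They were picked for likeness to members that mostly lie there, so this count is not separate evidence. AT1G54020 measured 7.74 and 7.13 in the quadruple mutant and 4.67 and 4.65 in amiR-NGA, the latter above the wild-type range of 3.51 to 4.22. AT1G65280 had the closest match, with 7.08 and 7.27 in the quadruple mutant, 6.01 and 5.78 in amiR-NGA and 5.51 to 6.10 in wild type. With the profile of QQS alone 5 of the 8 were again among the closest, and without quadruple mutant replicate 2 the count was 0.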

How the data were processed

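Expression was measured on 11 ATH1 arrays. The table the authors deposited holds log2 values, obtained with GC-RMA in R 2.7.2 and Bioconductor 2.2, as stated in the design text of the series and per the submitters' processing notes. That method removes a background modelled on probe sequence, which leaves dim transcripts near a floor. Probe-level intensities were not analysed here. Precision is limited by the number of arrays.

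Of 22810 rows, 64 controls were left out, and 17910 of 22746 probe sets were kept (log2 of at least 4 on at least 4 arrays). The platform annotation gave 1 gene for 13513 probe sets, several for 503 and none for 8730, and 13436 matched RefSeq (TAIR10.1), used for names and gene order. Differences came from limma 3.58.1 in R 4.3.3 (lmFit and eBayes), with 3 groups in 1 fit and two-sided Benjamini-Hochberg adjusted p over all kept probe sets, at a threshold of 0.05. The long-days test used the 7 wild-type arrays. The procedure was tested on simulated data. There limma called 35% of changes of 1 and 90% of changes of 2 on the log2 scale between the quadruple mutant and amiR-NGA. The simulated noise was independent between arrays, with the same spread in all groups and no differences in array quality. These rates therefore need not hold for the real arrays. The members and lists were chosen with earlier results of these data known. Named besides the members and the NGATHA genes were up to 3 called genes of each list, up to 6 called loci near the members or the NGATHA genes, and the 8 closest profiles. Other genes were chosen after their values were seen.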

Additional observations from a re-analysis of the deposited data

How the results depend on the processing

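The members' differences of the quadruple mutant from wild type and from amiR-NGA stayed above 0 under all alternatives run. They went down to 0.18 for the dimmer 2A6 probe set with the replicate block, and between 2.88 and 4.11 from wild type for ECS1. The choice of genes largely fixed this sign. Both quadruple mutant arrays lay above all others for every member probe set, so leaving out arrays could not turn it. The small differences between amiR-NGA and wild type changed sign for ECS1 (-0.95 to 0.19), QQS (-0.49 to 0.10), ATB2 (-0.13 to 0.22), AT4G18280 (-0.08 to 0.47) and the brighter 2A6 probe set (-0.18 to 0.22). Of 249 recomputed differences from amiR-NGA, 9 moved by more than the replicate spread, as did 8 from wild type and 10 between amiR-NGA and wild type. Counts of calls moved widely. Quadruple mutant against amiR-NGA gave 24 calls, 45 with array weights, 12 without the 3 controls that carry the long-days note and 13 without the 4 lacking it; leaving out single arrays gave 13 (without amiR-NGA replicate 2) to 179 (without quadruple mutant replicate 2), with 14 without quadruple mutant replicate 1. Against wild type the 747 calls became 132 and 204 without those controls, 236 with the note as a covariate and 378 at 2-fold, and leaving out single arrays gave 39 (without quadruple mutant replicate 1) to 963, with 343 and 427 without wild-type replicates 3 and 4. The 167 calls for amiR-NGA became 1650 with array weights, 35 and 48 without those controls, 81 with the covariate and 96 at 2-fold, and leaving out single arrays gave 5 (without either amiR-NGA array) to 212, with 88 and 78 without wild-type replicates 3 and 5. Chosen after seeing the data, leaving out the 3 arrays with high actin differences gave 124 and 420 calls for the 2 genotypes against wild type, leaving out wild-type replicates 1 to 4 gave 191 and 43, and leaving out replicates 5 to 7 gave 443 and 78. Calls near the NGATHA genes ranged from 3 to 7 (without quadruple mutant replicate 2), and those for the note from 0 to 1 (without wild-type replicate 1), when single arrays were left out. The cause of these shifts was not tested.

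With the replicate number as a block, the calls were 2 against amiR-NGA, 252 against wild type, 859 for amiR-NGA against wild type and 1 near the NGATHA genes. Whether the numbers pair the samples was not tested. Deviations of same-numbered arrays correlated at 0.29 between both genotypes. They correlated at 0.17 and -0.27 between the quadruple mutant and wild type, and at 0.04 and -0.18 between amiR-NGA and wild type. With 2 arrays per genotype, differently numbered arrays of both genotypes give the same size with the opposite sign (-0.29), so these values cannot decide it.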
